A study of Mus musculus with 10 samples.

Results

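The 43 genes described here encode proteins of DNA replication and cell division: 14 replication genes, 27 mitosis genes, and the general proliferation genes Mki67 and Foxm1. They were chosen by name from the annotation of an Agilent mouse array, and each was represented by its probe of highest mean signal over the 10 arrays. Of the 43, 38 cleared the array's background call on at least 2 arrays and were tested among 32212 genes and unnamed transcripts in all. Ccne2 and Aurkb were well above background on 0 arrays and Mcm2, Ccna2 and Melk on 1 array each, so these 5 were not tested.

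The cells came from mice given the neurotoxin MPTP, into whose midbrain lineage-negative haematopoietic stem and progenitor cells (HSPCs) of donor bone marrow were grafted on one side, 3 days after the last injection. At 1 week the cells were dissociated and sorted by fluorescence into RFP+YFP+ cells, called hybrids here, which the submitters describe as fused, and RFP+ cells, described as unfused. R26Y recipients, which carry a YFP reporter that Cre switches on, received Cre/RFP HSPCs. GFAP-Cre and FoxA2-Cre recipients, in which the Gfap or Foxa2 promoter drives Cre, received R26Y HSPCs. The 5 groups, each of 2 replicates, were R26Y hybrids, GFAP-Cre hybrids, a pool of unfused cells from R26Y with those from GFAP-Cre recipients (pooled unfused), FoxA2-Cre hybrids and FoxA2-Cre unfused cells. All recipients had received MPTP and a graft, so no ungrafted or toxin-free cells were compared. Each replicate pooled cells of 2 mice, and the labels do not say whether mice were shared between groups. Where the recipient carries Cre, YFP reports fusion only with a cell that has expressed it, so a graft cell that fused with another kind of cell would be sorted as RFP+.

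Before S phase, the Mcm helicase is loaded at replication origins with the help of Cdc6, and ribonucleotide reductase and thymidylate synthase supply DNA precursors. Later in the cycle, B-type cyclins and the Plk1 and Aurora kinases drive entry into mitosis, kinetochore proteins attach chromosomes to the spindle, and the anaphase-promoting complex with Cdc20 and Ube2c marks cyclins and other proteins for destruction. Transcripts of these genes rise and fall with the cycle, so in bulk RNA fewer dividing cells and less transcript per cell cannot be told apart. Haematopoietic progenitors divide, whereas most neurons do not.

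Signal is given as scaled signal: log2 of the processed intensity minus the array's 75th percentile over 9510 spots that were well above background on all arrays. It compares arrays for 1 probe and does not rank genes, since probes differ in brightness. On the slide of the 6 R26Y, GFAP-Cre and pooled unfused arrays, the members well above background numbered 37 and 26 of 43 for R26Y hybrids, 35 and 35 for GFAP-Cre hybrids, and 37 and 35 for pooled unfused cells. The slide of the 4 FoxA2-Cre arrays had 14 and 10 such members in hybrids, and 24 and 19 in unfused cells. The members followed the array as a whole: the share of all genes on the array that was well above background was 70.5% on R26Y hybrid replicate 2 and between 85.3% and 89.5% on the other 5 arrays of that slide, against 42.1% and 26.1% in FoxA2-Cre hybrids, and 57.0% and 42.7% in FoxA2-Cre unfused cells. Slide cannot be told apart from recipient set, nor, for the FoxA2-Cre arrays, the row of the slide (row 1 for hybrids, row 2 for unfused cells) from the cell group. Mcm4, Plk1, Cdca8 and Kif20a were the only members well above background on all 10 arrays.

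**Figure D1:**
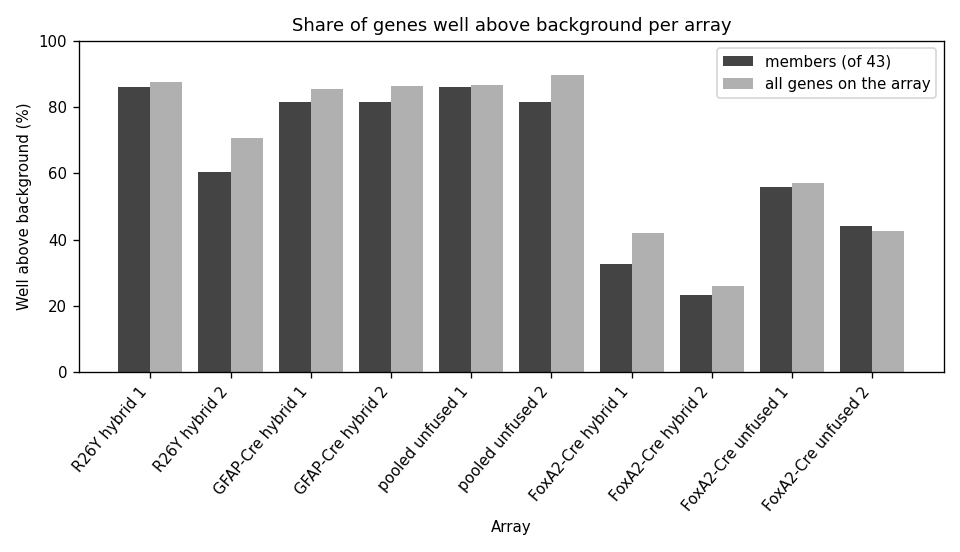
Percent of genes well above background on each of the 10 arrays, for the 43 members (dark bars) and for all genes on the array (light bars). The members range from 37 of 43 on R26Y hybrid replicate 1 to 10 of 43 on FoxA2-Cre hybrid replicate 2, where all genes stand at 87.6% and 26.1%.

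Replicates of a group differed by a median of 0.43 log2 for pooled unfused cells and 0.44 for GFAP-Cre hybrids, over the 34 and 32 members well above background on both arrays. The median gap was 0.66 for FoxA2-Cre unfused cells (16 members), 1.07 for R26Y hybrids (26 members) and 1.40 for FoxA2-Cre hybrids (5 members). In 8 of 43 members the highest array stood more than 2 log2 above the next: Bub1b and Nusap1 in R26Y hybrid replicate 2, Cdc6 in FoxA2-Cre hybrid replicate 2, and Mcm3, Mcm6, Cdca3, Rrm2 and Tpx2 in FoxA2-Cre unfused replicate 2. Bub1, a checkpoint kinase whose probe is printed in 10 spots on each array, shows the spread within an array: on R26Y hybrid replicate 1 all 10 spots were well above background with an SD of 0.23, and on replicate 2 none of the 10 was.

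**Figure D2:**
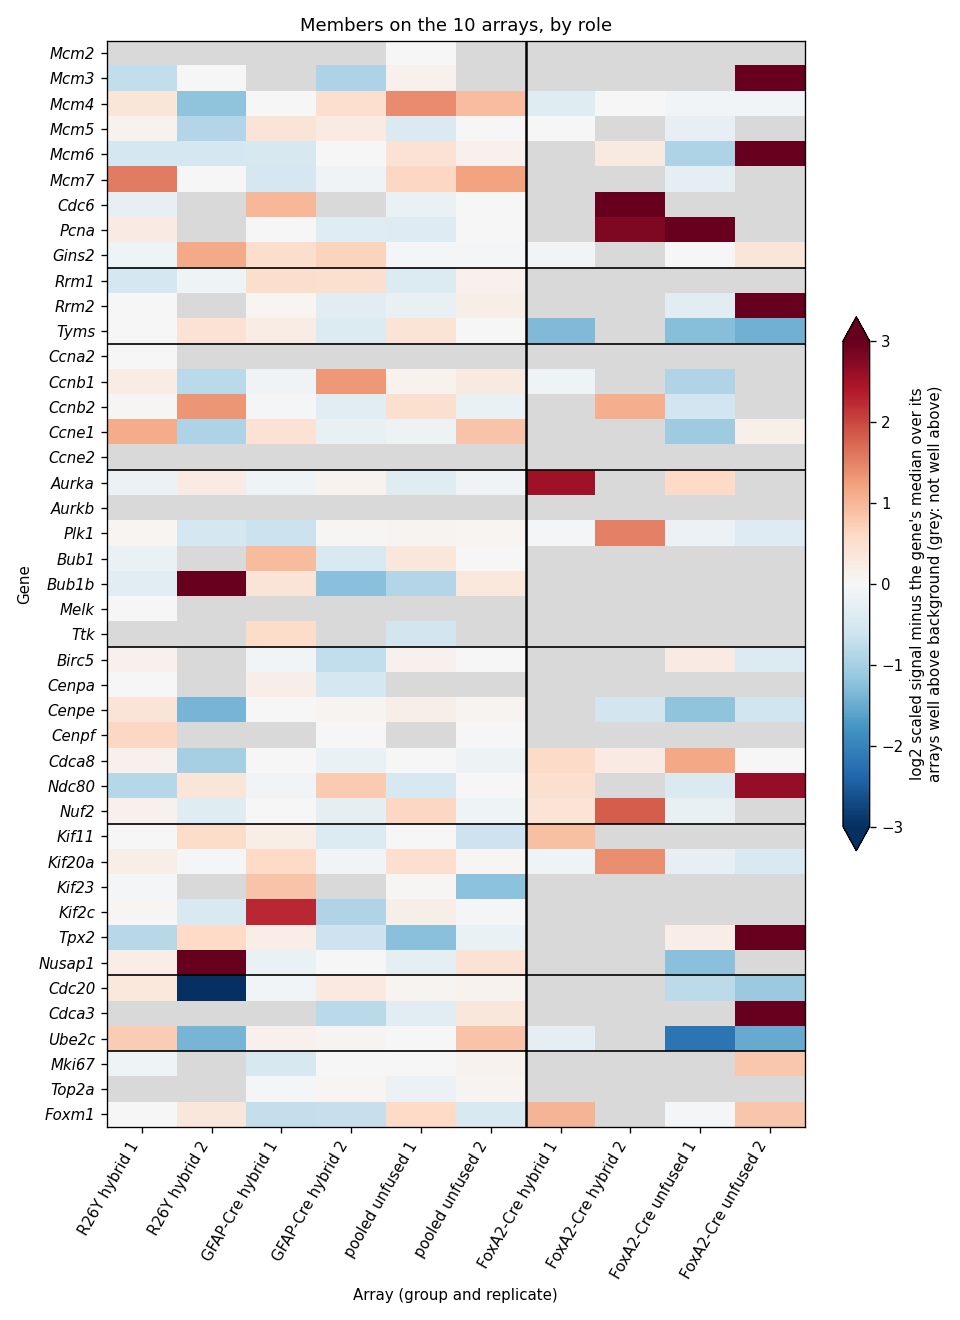
Scaled signal (log2) of the 43 members on the 10 arrays, each minus the gene's own median over arrays where it was well above background. Grey cells were not well above background, black horizontal lines separate the roles in the order of the text, and the vertical line separates the slides. Most cells of the FoxA2-Cre arrays are grey, and the darkest red cells are single arrays, such as Bub1b in R26Y hybrid replicate 2.

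No member passed the threshold (adjusted p under 0.05, limma, Benjamini-Hochberg adjustment across all 32212 genes) in any of the 6 comparisons. For all hybrids against all unfused cells, with recipient set as a covariate, 0 of 38 members passed and 5 had an unadjusted p under 0.05, where 0.0% of all genes passed and 1007 of 32212 had such a p. R26Y hybrids against pooled unfused cells gave 0 members called, 2 members with an unadjusted p under 0.05 (448 of all genes) and 0.0% of genes called. GFAP-Cre hybrids against pooled unfused cells gave 0 members called, 0 members with such a p (523 of all genes) and 0.0% of genes called. FoxA2-Cre hybrids against FoxA2-Cre unfused cells gave 0 members called and 7 with such a p (2786 of all genes), where 0.531% of genes were called, 17 higher and 154 lower. For the difference of the hybrid effect between recipient sets, 0 members were called and 2 had such a p (1810 of all genes), with 0.0962% of genes called, and for GFAP-Cre hybrids against R26Y hybrids 0 members were called and 1 had such a p (887 of all genes), with 0.0% of genes called. With 2 arrays a group, an adjusted p above the threshold does not show that groups were alike.

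Medians of the 38 tested members are given beside those of all genes. The member median log2 difference was 0.03 for all hybrids (all genes 0.03), -0.30 for R26Y hybrids (all genes -0.26), -0.09 for GFAP-Cre hybrids (all genes 0.03) and 0.40 for FoxA2-Cre hybrids (all genes 0.36). It was 0.18 for the difference of the hybrid effect between recipient sets (all genes 0.40) and 0.32 for GFAP-Cre against R26Y hybrids (all genes 0.29). In the FoxA2-Cre comparison the median of all genes lay above 0 with this scaling, so a difference of 0.36 there is the position of the middle gene. That median was 0.12 with quantile normalization and 0.03 with the authors' log2 matrix. With normexp background correction the FoxA2-Cre member median was 0.75 (all genes 0.71), and 6 instead of 17 of 38 members lay below 0. That correction adds an offset of 50 to each intensity, while the median processed signal of the FoxA2-Cre arrays lay between 4.77 and 16.5. Its values for dim genes on these arrays therefore do not settle a direction. With the FoxA2-Cre unfused replicate 2 array left out, the member median became 0.79, and with FoxA2-Cre hybrid replicate 2 left out it became 0.017. R26Y and GFAP-Cre hybrids are compared with the same pooled unfused arrays, so their values are not independent of each other.

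Stretches of promoter were searched for sequence features that the choice of members did not use. RefSeq promoter windows of build GRCm38.p6, from 250 bases before to 50 after each gene's start, were matched by symbol for 35 of 43 members (36 windows). The cell cycle genes homology region (CHR, TTTGAA or TTCGAA), at which the DREAM and MuvB complexes act, occurred on either strand in 17 of 23 windows of mitosis genes (73.9%), 2 of 12 windows of replication genes (16.7%) and 19.2% of all 32851 windows. The E2F sites TTTCCCGC and TTTGGCGC occurred in 5 of 12 windows of replication genes (41.7%), 0 of 23 of mitosis genes and 1.56% of all windows, and the CCAAT box, bound by NF-Y, in 27 of 36 member windows against 37.4% of all windows. A match is only a run of letters, and one that is missing from the window says nothing about the factor. The 150 bases before the start are shown for 4 members whose readings are described below, 5′ to 3′ on the gene's strand, with CHR, E2F and CCAAT matches in capitals:
Cdc20 (chr4:118437344-118437493, minus strand): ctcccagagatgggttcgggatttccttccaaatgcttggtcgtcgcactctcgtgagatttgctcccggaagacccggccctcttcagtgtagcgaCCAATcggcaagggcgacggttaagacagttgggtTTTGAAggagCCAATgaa
Mcm6 (chr1:128359706-128359855, minus strand): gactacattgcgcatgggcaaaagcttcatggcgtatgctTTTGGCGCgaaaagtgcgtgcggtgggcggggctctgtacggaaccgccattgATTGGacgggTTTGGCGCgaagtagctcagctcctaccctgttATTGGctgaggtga
Rrm2 (chr12:24708104-24708253, plus strand): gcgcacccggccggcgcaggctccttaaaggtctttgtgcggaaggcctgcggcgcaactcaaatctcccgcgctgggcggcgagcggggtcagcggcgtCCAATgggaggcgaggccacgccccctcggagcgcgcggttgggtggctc
Birc5 (chr11:117849087-117849236, plus strand): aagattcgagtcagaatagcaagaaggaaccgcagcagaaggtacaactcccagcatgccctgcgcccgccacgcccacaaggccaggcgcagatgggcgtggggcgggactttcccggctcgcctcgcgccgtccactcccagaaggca
Cdc20, a mitosis gene, has its homology region 18 bases and CCAAT boxes 53 and 8 bases before its start, whereas Mcm6, a replication gene, has E2F sites at 110 and 47 bases and CCAAT boxes at 57 and 14 bases. Rrm2 has 1 CCAAT box, 50 bases before its start, and Birc5 has none of these letter runs.

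Replication origin licensing and fork genes (9 members, 8 tested) were below 0 in 6 of 8 in R26Y hybrids, 5 of 8 in GFAP-Cre hybrids and 6 of 8 in FoxA2-Cre hybrids, with 0 called. Of all genes measured on every array of these comparisons, 58.6%, 45.2% and 35.8% lay below 0. The R26Y signs depend on the scaling: of 12 tested replication genes 9 were below 0. With scaling over all probes, with quantile normalization and with the authors' log2 matrix, 5 of 12 were. Mcm4, a subunit of the Mcm helicase, was read by a probe at chr16:15624372-15624431 (minus strand, build mm9). Its scaled signal was -1.19 and -1.68 in pooled unfused cells, -2.23 and -3.82 in R26Y hybrids and -2.58 and -2.10 in GFAP-Cre hybrids, so all 4 hybrid arrays lay below both unfused arrays. On the FoxA2-Cre slide the values were -2.96 and -2.62 in hybrids and -2.68 and -2.68 in unfused cells, and the groups overlapped. The Mcm4 log2 difference was -1.59 ± 0.63 (SE) in R26Y hybrids and -0.91 ± 0.63 in GFAP-Cre hybrids, each with an adjusted p of 1 (limma).

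Mcm6, another subunit of the helicase (probe chr1:130228178-130228237, minus strand, mm9), gave -2.66 and -2.97 in pooled unfused cells, -3.61 and -3.62 in R26Y hybrids and -3.56 and -3.09 in GFAP-Cre hybrids. Here too all 4 hybrid arrays were the lower ones, but the log2 differences of -0.80 ± 1.66 (SE) in R26Y and -0.51 ± 1.66 in GFAP-Cre hybrids were smaller than errors that include the gap between the FoxA2-Cre unfused arrays. Fitted on the 6 arrays of the slide alone, the SE was 0.40 and the adjusted p 0.838 and 1. In FoxA2-Cre unfused cells Mcm6 was -4.01 on replicate 1 and 1.90 on replicate 2. Without replicate 1, the fitted FoxA2-Cre difference of Mcm6 was -5.72, from that single unfused array. Mcm4, Mcm6 and the mitotic kinase Plk1 were the 3 members whose hybrid arrays all lay below the unfused arrays of the R26Y and GFAP-Cre slide with the unfused arrays well above background, 3 of 38 where 5.08% of all genes did so, and 0 of 38 lay above where 3.9% of genes did.

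Cdc6, which helps load the helicase, and Pcna, the sliding clamp of the replication fork, were each high on single FoxA2-Cre arrays. Cdc6 was at 4.72 on FoxA2-Cre hybrid replicate 2 and not well above background on the other 3 arrays of that slide, and the 2 pooled unfused arrays were at -6.40 and -6.21. Without FoxA2-Cre hybrid replicate 1, the Cdc6 difference again rested on 1 array. The unfused arrays bound that array only as at least 1346-fold higher. A second Cdc6 probe was well above background on 0 of 10 arrays and read -5.61 on FoxA2-Cre hybrid replicate 2. The first 30 bases of both probes, which lie on the plus strand of mm9, show the sites that gave these unlike readings:
Cdc6 probe used (chr11:98785169-98785228): ttaagaaccagattaagtttccatagtgtc
Cdc6 second probe (chr11:98782986-98783045): tgtaaagaactttgaagtttagaaggatga
Pcna read -0.32 on FoxA2-Cre hybrid replicate 2 and -0.12 on FoxA2-Cre unfused replicate 1, and was not well above background on the other array of either group. On the other slide it was between -3.49 and -2.88 on 5 arrays and not well above background on R26Y hybrid replicate 2. Of the remaining helicase genes, Mcm5 differed by 0.37 ± 0.54 (SE) in FoxA2-Cre hybrids. Mcm7 was not well above background in FoxA2-Cre hybrids and was so on 1 unfused array, at least 1.17-fold lower in hybrids. Mcm3 stood out on FoxA2-Cre unfused replicate 2 alone (-0.71, and 0.19 at a second probe that overlaps it). Gins2, of the replicative helicase complex, differed by -0.25 ± 0.56 there.

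DNA precursor genes were led by Rrm2, the regulated subunit of ribonucleotide reductase (probe chr12:25398824-25398883, plus strand, mm9). Rrm2 was at -3.98 on R26Y hybrid replicate 1 and not well above background on replicate 2, at -3.93 and -4.32 in GFAP-Cre hybrids and at -4.21 and -3.81 in pooled unfused cells. In FoxA2-Cre unfused cells it was at -4.32 and -0.08, and in FoxA2-Cre hybrids it was not well above background on either array. Taking the background level for the hybrids, Rrm2 was at least 8.06-fold lower in them (fitted log2 difference -3.83 ± 1.71, SE, adjusted p 0.589), and at least 1.86-fold lower without FoxA2-Cre unfused replicate 2. Tyms, thymidylate synthase, was steadier: the log2 difference was 0.0046 ± 0.50 (SE) in R26Y hybrids, -0.30 ± 0.50 in GFAP-Cre hybrids and -0.03 ± 0.50 in FoxA2-Cre hybrids. Tyms read -3.69 on FoxA2-Cre hybrid replicate 1 and -3.66 and -3.81 in FoxA2-Cre unfused cells, and was not well above background on hybrid replicate 2 (-3.85). Rrm1, the large subunit of the reductase, was not well above background on any FoxA2-Cre array, so its fitted difference of 1.35 there carries no order.

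Among the cyclins, Ccna2 and Ccne2 were not tested. Ccnb1 and Ccnb2, the partners of Cdk1 in mitosis, differed by less than their errors in R26Y hybrids (-0.48 ± 0.72 and 0.53 ± 0.95, SE) and in GFAP-Cre hybrids (0.42 ± 0.72 and -0.32 ± 0.95). Ccnb1 was at -3.69 and -4.72 in R26Y hybrids, -4.00 and -2.61 in GFAP-Cre hybrids and -3.81 and -3.63 in pooled unfused cells. A second Ccnb1 probe, at position 846 of the transcript where the one used starts at 532, read -8.72 and not well above background on R26Y hybrid replicate 2 against -2.38 to -1.75 on the other 5 arrays of the slide, and the remaining one, at position 2228, read -7.11 there, also not well above background. The 3 probes gave R26Y differences of -0.48, -3.29 and -1.71, so the size of the Ccnb1 difference depends on the probe. Ccne1, the partner of Cdk2 before S phase, was at -4.93 and -3.72 in FoxA2-Cre unfused cells and not well above background in FoxA2-Cre hybrids, that is, at least 1.91-fold lower, and at least 1.26-fold without FoxA2-Cre unfused replicate 2 (fitted log2 difference -1.27 ± 0.81, SE, adjusted p 0.67). A second Ccne1 probe was well above background on 0 of the FoxA2-Cre arrays. It gave differences of -2.79 in R26Y and -3.46 in GFAP-Cre hybrids, where the probe used gave -0.26 in each. On replicate 2 of these hybrids the second probe read -8.75 and -8.90, not well above background.

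The mitotic and checkpoint kinases (7 members, 5 tested) had positive differences in 5 of 5 in FoxA2-Cre hybrids, with 0 called, and 3 of these 5 were not measured in either group. Plk1, which acts from mitotic entry to cell separation, was well above background on every array (probe chr7:129313220-129313279, plus strand, mm9). It read -1.91 and -0.37 in FoxA2-Cre hybrids against -2.07 and -2.26 in their unfused cells, and -1.82, -2.41, -2.52 and -1.86 in the R26Y and GFAP-Cre hybrids against -1.80 and -1.81 in pooled unfused cells. Hybrid arrays thus lay above the unfused ones on the FoxA2-Cre slide and below them on the other, where R26Y hybrid replicate 1 was all but level with the unfused arrays. The difference of the hybrid effect between recipient sets was 1.37 ± 0.84 (SE, adjusted p 0.835), and the R26Y difference turned from -0.31 to 0.03 when arrays were scaled over all probes.

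Aurka, the spindle pole kinase, was at -2.92 on FoxA2-Cre hybrid replicate 1 and -4.86 on FoxA2-Cre unfused replicate 1, and not well above background on the second array of either group. Its log2 difference was 1.65 ± 0.51 (SE, unadjusted p 0.012, adjusted p 0.411, limma) in FoxA2-Cre hybrids, 0.27 ± 0.51 in R26Y hybrids and 0.22 ± 0.51 in GFAP-Cre hybrids. Bub1b, a kinase-like protein of the spindle checkpoint, read 3.28 on R26Y hybrid replicate 2 and between -6.62 and -4.99 on the other 5 arrays of the slide. Leaving out R26Y hybrid replicate 1 made that single array the group, so only the sizes of its fitted log2 differences from pooled unfused cells are given. Bub1b (8.92) and Nusap1 (3.62) were higher, and Cdc20 (-3.21) and Birc5 lower. Birc5 was not well above background there, so it is only bounded as at least 118.1-fold lower. The same array was the one with 26 of 43 members well above background.

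**Figure D3:**
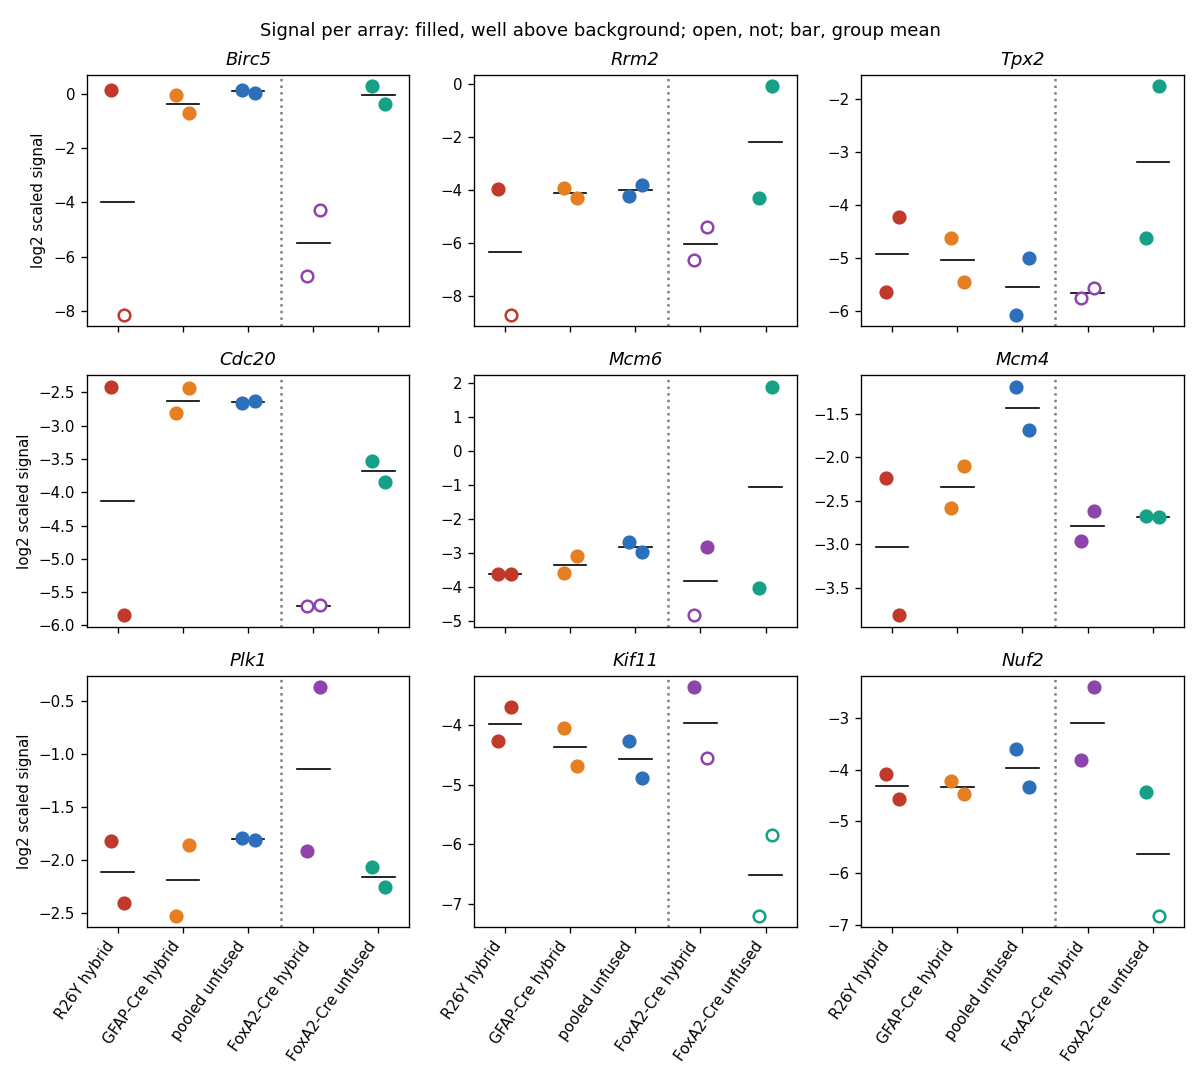
Scaled signal (log2, vertical axis) of 9 members on each array, by group (horizontal axis). Filled points were well above background, open points were not, bars are group means of 2 arrays, and the dotted line separates the slides. Birc5, Rrm2, Tpx2 and Cdc20 are open in both FoxA2-Cre hybrid arrays and filled in both FoxA2-Cre unfused arrays.

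The widest difference on the FoxA2-Cre slide among members below 0 was that of Birc5 (survivin), a subunit of the chromosomal passenger complex that also inhibits cell death. Its probe of highest signal (chr11:117716978-117717037, plus strand, mm9) read 0.30 and -0.36 in FoxA2-Cre unfused cells and was not well above background in either FoxA2-Cre hybrid array, which makes hybrids at least 24.7-fold lower. On the other slide it was between -0.69 and 0.17 on 5 arrays, and on R26Y hybrid replicate 2 it read -8.16 and was not well above background. The fitted log2 difference was -5.49 ± 2.27 (SE, unadjusted p 0.0429, adjusted p 0.571, limma) in FoxA2-Cre hybrids and -4.10 ± 2.27 (adjusted p 1) in R26Y hybrids. Fitted on the arrays of the FoxA2-Cre slide alone, which also leaves out the R26Y arrays, the FoxA2-Cre SE was 1.04 and the adjusted p 0.343 (limma). Without either R26Y hybrid array, whose gap widens the shared spread, the same FoxA2-Cre difference had an SE of 0.83 and an adjusted p of 0.041.

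The other 2 Birc5 probes did not show drops of that size. The probe at position 269 of transcript variant 1 read -3.83 on FoxA2-Cre hybrid replicate 1 and -4.44 on FoxA2-Cre unfused replicate 1, was not well above background on the second array of either group, and read -4.81 on R26Y hybrid replicate 2 against -4.46 to -3.54 on the other 5 arrays of that slide. The probe at position 415 of variant 3 was well above background on all 10 arrays, at -2.51 and -2.83 in FoxA2-Cre hybrids, -4.24 and -1.70 in FoxA2-Cre unfused cells, and -2.72 on R26Y hybrid replicate 2 against -6.00 to -3.23 on the other 5. The low readings were thus those of the probe at position 3336 of variant 3, the one with the highest genome coordinates. Its first 30 bases are set beside those of the other probes to show where in the gene each one reads:
Birc5 probe used, variant 3 position 3336 (chr11:117716978-117717037): tgctgataattttgtcctgatgagttttcc
Birc5 variant 3 position 415 (chr11:117714057-117714116): tcttgaaactggacagacagagagccaaga
Birc5 variant 1 position 269 (chr11:117711112-117711171): tgatttggcccagtgttttttctgctttaa
The difference in FoxA2-Cre hybrids was -5.49 at the probe used, 0.31 at the second and 1.03 at the third. Whether a transcript form, its amplification or the probe accounts for this was not tested.

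**Figure D4:**
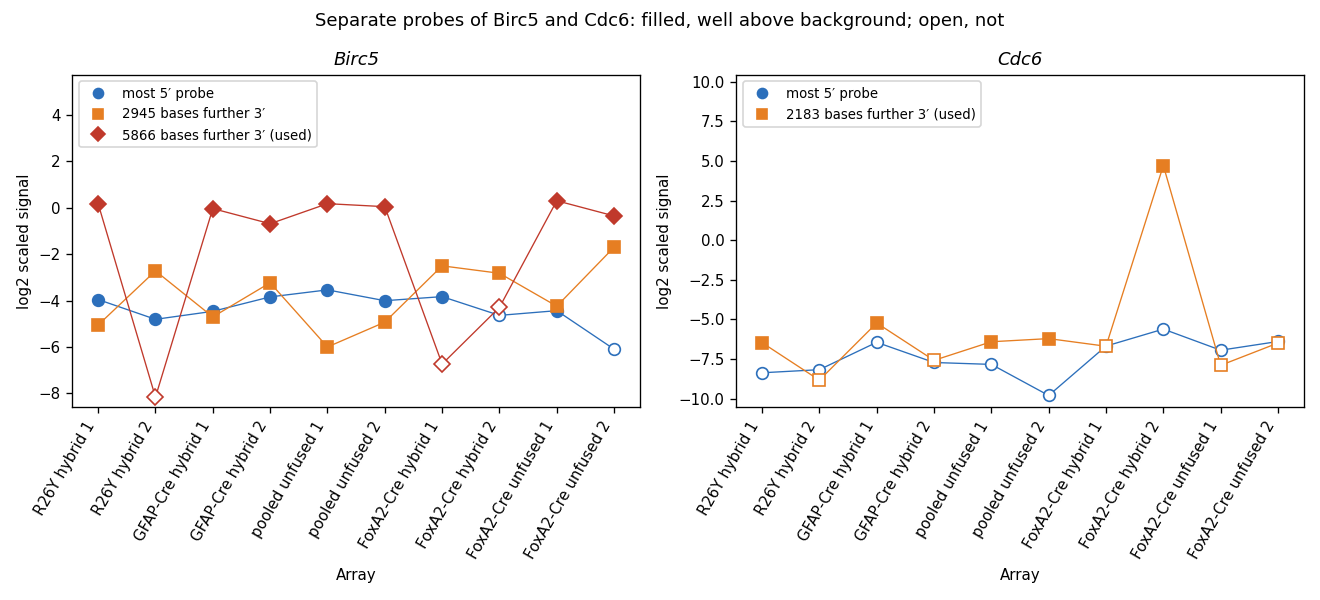
Scaled signal (log2, vertical axis) of the 3 Birc5 probes and the 2 Cdc6 probes on each array (horizontal axis). Symbols are filled where the probe was well above background, and the legend gives the distance of each probe from the most 5′ one. The Birc5 probe used is not well above background on R26Y hybrid replicate 2 or on either FoxA2-Cre hybrid array, where the probe at position 415 is, and the Cdc6 probe used reads 4.72 on FoxA2-Cre hybrid replicate 2.

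Centromere, kinetochore and passenger genes, Birc5 included, went both ways on the FoxA2-Cre slide (3 of 7 above 0, 4 below). Of the 3 above, Cenpa and Cenpf were measured on no FoxA2-Cre array. Nuf2, of the Ndc80 complex that binds microtubules, read -3.80 and -2.40 in FoxA2-Cre hybrids and -4.43 on FoxA2-Cre unfused replicate 1, and was not well above background on replicate 2. Its log2 difference was 2.52 ± 0.87 (SE, unadjusted p 0.0205, adjusted p 0.479), against -0.36 ± 0.87 in R26Y and -0.38 ± 0.87 in GFAP-Cre hybrids, and the difference between recipient sets was 2.89 ± 1.15 (adjusted p 0.835). The 2 other Nuf2 probes were not well above background on any FoxA2-Cre array. Ndc80 differed by -1.44 ± 1.07 (SE) there, with -0.78 on FoxA2-Cre unfused replicate 2 as its highest array, and its probe shares a run of 25 bases with a probe of another gene, 2700099C18Rik. Cenpe, a kinesin that moves chromosomes to the spindle equator, was at -1.59 on FoxA2-Cre hybrid replicate 2, not well above background on replicate 1, and at -2.25 and -1.64 in unfused cells (difference -1.35 ± 1.09, SE). Cdca8 (borealin), a passenger complex subunit measured on every array, differed by -0.36 ± 0.62 in R26Y, -0.02 ± 0.62 in GFAP-Cre and -0.18 ± 0.62 in FoxA2-Cre hybrids, all within the error.

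Cenpa, the histone H3 variant of centromeres, had the smallest p of the members for all hybrids against all unfused cells (1.42 ± 0.46, SE, unadjusted p 0.0116, adjusted p 0.999). It was -6.19, -6.02 and -6.72 on 3 of the 4 hybrid arrays of the R26Y and GFAP-Cre slide and not well above background on any of the other 7 arrays. Cenpf, a kinetochore protein that had 3 arrays well above background, differed by 1.05 ± 0.36 in the same comparison (adjusted p 0.999). Both were measured on no FoxA2-Cre array, and the values on that slide carry no order.

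Spindle genes (6 tested) were above 0 in 5 of 6 in FoxA2-Cre hybrids, with 0 called. Of these 5, Kif23 and Kif2c were measured in neither group and Nusap1 on FoxA2-Cre unfused replicate 1 alone, so their positive values carry no order. Kif11, the kinesin that pushes the spindle poles apart, had the smallest p of the members in that comparison. It was at -3.36 on FoxA2-Cre hybrid replicate 1 and not well above background on the other 3 arrays of the slide, so hybrids, as the mean of the measured and the unmeasured array, were at least 3.30-fold higher than the background level, and at least 1.93-fold without FoxA2-Cre unfused replicate 1 (fitted log2 difference 2.56 ± 0.69, SE, unadjusted p 0.00653, adjusted p 0.33). In R26Y and GFAP-Cre hybrids it read -4.26, -3.70, -4.05 and -4.67 against -4.25 and -4.88 in pooled unfused cells, and the groups overlapped. The difference between recipient sets was 2.17 ± 0.92 (adjusted p 0.835).

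Kif20a, a kinesin of late mitosis, was measured on all arrays and read -3.75 and -2.23 in FoxA2-Cre hybrids and -3.88 and -4.09 in their unfused cells, a difference of 0.99 ± 0.63 (SE, adjusted p 0.669). Tpx2, which activates Aurka on the spindle, ran the other way: -4.63 and -1.77 in FoxA2-Cre unfused cells and not well above background in hybrids, at least 4.28-fold lower, but at least 1.59-fold without FoxA2-Cre unfused replicate 2. The fitted log2 difference was -2.47 ± 0.99 (SE, adjusted p 0.554), and 0.10 with normexp background correction. A second Tpx2 probe was well above background on 0 arrays. Nusap1, which bundles spindle microtubules, was at -0.55 on R26Y hybrid replicate 2 and between -4.52 and -3.81 on the other 5 arrays of its slide.

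Of the anaphase genes, Cdc20, the activator of the anaphase-promoting complex (probe chr4:118105534-118105593, minus strand, mm9), had replicates close together in FoxA2-Cre unfused cells. It read -3.52 and -3.85 there and was not well above background in either hybrid array, at least 3.18-fold lower (fitted log2 difference -2.02 ± 0.99, SE, unadjusted p 0.0772, adjusted p 0.609), although the fitted value was 0.14 with normexp background correction. On the other slide Cdc20 was between -2.81 and -2.41 on 5 arrays and at -5.85, still well above background, on R26Y hybrid replicate 2. Ube2c, the E2 enzyme of the complex, read -2.60 on FoxA2-Cre hybrid replicate 1 and -4.48 and -3.82 in unfused cells. On hybrid replicate 2 it read -3.87 and was not well above background, so the groups overlapped. The Ube2c difference was 0.92 ± 0.82 (SE), the opposite sign to Cdc20. Cdca3, a mitotic entry factor degraded after mitosis, was measured on 1 FoxA2-Cre array only (-1.58, unfused replicate 2).

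Mki67, the common proliferation marker, was between -3.76 and -3.16 on 5 arrays of the R26Y and GFAP-Cre slide and not well above background on R26Y hybrid replicate 2. On the FoxA2-Cre slide it was measured on unfused replicate 2 alone, at -2.47. The log2 difference of Mki67 was -1.92 ± 1.44 (SE) in R26Y, -0.30 ± 1.44 in GFAP-Cre and -1.03 ± 1.44 in FoxA2-Cre hybrids, with adjusted p of 1, 1 and 0.813. A second Mki67 probe gave -1.14 in R26Y hybrids, with all 4 arrays of that comparison well above background. In GFAP-Cre hybrids it gave -2.32, with -8.09 and not well above background on replicate 2, so the size of the difference depends on the probe. It was well above background on 0 of the FoxA2-Cre arrays. Top2a, the topoisomerase that untangles chromosomes, was at -6.00 and -5.72 in pooled unfused cells, -5.88 and -5.75 in GFAP-Cre hybrids and not well above background on either R26Y hybrid array, at least 2.01-fold lower in the latter (fitted log2 difference -1.85 ± 0.76, SE, unadjusted p 0.0416, adjusted p 1). GFAP-Cre hybrids were at least 2.08-fold higher than R26Y hybrids (1.90 ± 0.76, adjusted p 1). Foxm1, a transcription factor of mitotic genes, differed by 0.09 ± 0.58 in R26Y, -0.78 ± 0.58 in GFAP-Cre and 0.58 ± 0.58 in FoxA2-Cre hybrids.

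Replication and mitosis genes were set side by side in the FoxA2-Cre comparison. Of 12 tested replication genes 3 were above 0 and 9 below (median -0.26), and of 24 mitosis genes 17 were above and 7 below (median 0.92), beside 0.36 for all genes. With normexp background correction the replication genes turned to 9 above and 3 below (median 0.46) and the mitosis genes to 21 above and 3 below (median 0.82), beside 0.71 for all genes. The counts of the replication genes thus depend on the background correction. With quantile normalization the medians were -0.41 for replication and 0.29 for mitosis genes (14 above, 10 below), beside 0.12 for all genes. With the authors' log2 matrix they were -0.04 and 0.09 (16 above, 8 below), beside 0.03. With scaling over all probes they were -0.22 and 0.97, beside 0.41. The size of the gap between the classes thus depends on the scaling. The offset of 50 in normexp exceeds the median processed signal of the FoxA2-Cre arrays, so its counts do not settle the direction of dim genes. Of the 17 mitosis genes above 0, 8 were measured in neither group. Among all members, 9 tested genes were measured in neither group and all 9 had positive fitted differences (median 1.08), which carry no order. Among the 17 measured in both groups 9 were above 0 and 8 below (median 0.13), with 7 of 10 mitosis genes above and 5 of 6 replication genes below. The 12 measured in 1 group split into 3 above and 9 below, and of the 3 above, Nusap1 was measured only in unfused cells. The difference between the 2 classes was not tested.

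On that slide 3 of 38 members (Nuf2, Plk1 and Kif20a) had both hybrid arrays above both unfused arrays with the hybrids well above background, where 7.95% of all genes did. In the other direction 6 of 38 (Birc5, Rrm2, Tpx2, Cdc20, Ccne1 and Gins2) had both hybrid arrays below, with both unfused arrays well above background, where 8.48% of all genes did. These counts are 7.89% and 15.8% of the tested members. Of the 6 lower ones, Birc5, Rrm2, Tpx2, Cdc20 and Ccne1 were not well above background on either hybrid array, and Gins2 differed by less than its error.

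**Figure D5:**
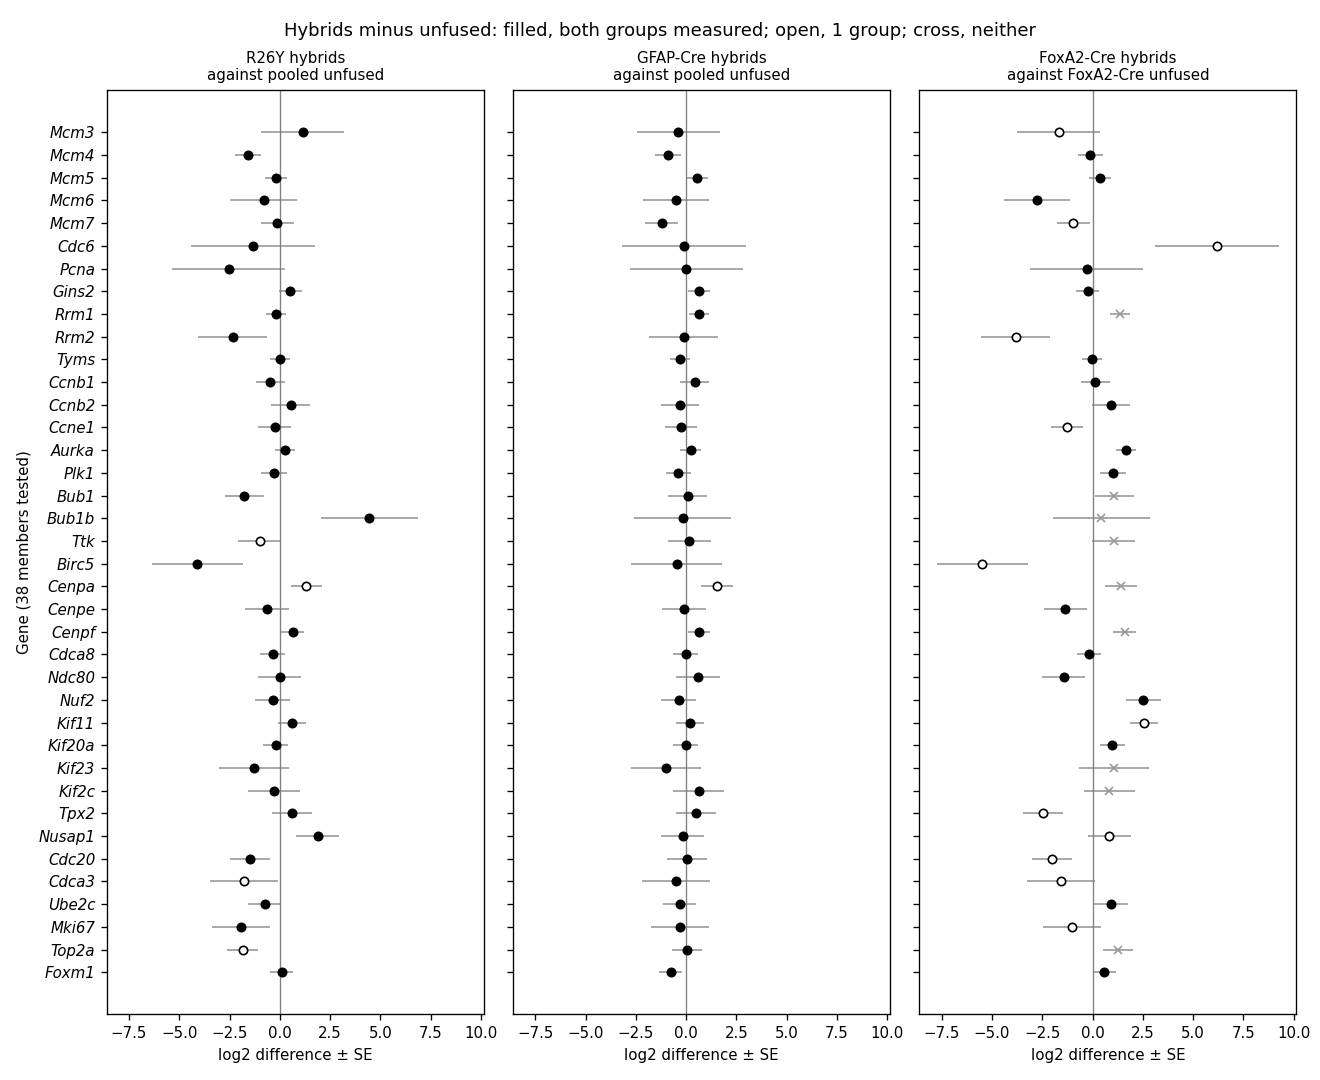
Log2 difference (horizontal axis, points, with SE as bars) of hybrids minus unfused cells for the 38 tested members, in 3 comparisons. Filled points were well above background on at least 1 array of both groups, open points in 1 group only, and grey crosses in neither group. In the FoxA2-Cre panel all 9 crosses lie to the right of 0, and Birc5 at -5.49 and Cdc6 at 6.20 lie farthest out.

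Other genes of the same pathway gave 0 calls in limma in any comparison, with at most 3 unadjusted p under 0.05 per list and comparison. In FoxA2-Cre hybrids 27 of 32 other replication genes were tested, 22 above 0 and 5 below (median 0.93), and 36 of 37 other mitosis genes, 28 above and 8 below (median 0.71), beside 0.36 for all genes. In R26Y hybrids the same lists had 9 above and 18 below (median -0.36) and 11 above and 25 below (median -0.63), beside -0.26. Many of these genes were dim: between 7 and 13 of the 32 and between 5 and 16 of the 37 were well above background on a FoxA2-Cre array. Of the 32, 20 were measured on neither FoxA2-Cre hybrid array and 19 on neither unfused array, and of the 37, 23 and 18. The counts above and below 0 include genes measured in neither group, whose values carry no order. In FoxA2-Cre hybrids the smallest p among the other replication genes was that of Rfc3, a clamp loader subunit (fitted difference 1.69 ± 0.57, SE, adjusted p 0.474), which was measured on FoxA2-Cre hybrid replicate 1 alone. Next came Cdt1, a licensing factor (1.92 ± 0.84, adjusted p 0.586), whose difference between recipient sets was 3.53 ± 1.12 (adjusted p 0.761). Cdt1 read -3.42 and -2.14 in FoxA2-Cre hybrids and -4.39 on FoxA2-Cre unfused replicate 1, and was not well above background on replicate 2. Among the other mitosis genes, Kif4, a chromosome kinesin (2.14 ± 0.68, adjusted p 0.435), was measured on no FoxA2-Cre array, and Prc1, which bundles microtubules at the midzone (2.42 ± 0.82, adjusted p 0.47), only on hybrid replicate 1.

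Ccnd3, cyclin D3, had the smallest p of all pathway genes. It read -0.33 and 1.52 in FoxA2-Cre unfused cells, -2.67 on FoxA2-Cre hybrid replicate 2 and was not well above background on hybrid replicate 1, with no overlap of the groups. On the other slide it lay between -3.68 and -3.45 in R26Y hybrids, -3.33 and -2.62 in GFAP-Cre hybrids and -3.26 and -2.81 in pooled unfused cells. The log2 difference of Ccnd3 in FoxA2-Cre hybrids was -4.16 ± 0.82 (SE, unadjusted p 0.0011, adjusted p 0.128), and the difference between recipient sets -3.93 ± 1.09 (adjusted p 0.663). Of the regulators 21 of 27 were tested, 13 above 0 and 8 below in FoxA2-Cre hybrids (median 0.45), with Cdc25b, a phosphatase that activates Cdk1, at 1.41 ± 0.66 (adjusted p 0.597). Of the brakes on the cycle 16 of 18 were tested, 11 above and 5 below (median 0.38). Cdkn2a, which encodes cyclin-dependent kinase inhibitor and p53 pathway proteins, had a fitted difference of 2.05 ± 0.49 (adjusted p 0.234) but was not well above background on any FoxA2-Cre array, and Cdkn2d, an inhibitor of Cdk4 and Cdk6, was measured on FoxA2-Cre hybrid replicate 1 alone (2.48 ± 0.95, adjusted p 0.529).

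Markers of cells that the sorts could hold are given as a description, with no test of a list. Mean levels of the neutrophil, microglia and macrophage, HSPC, neuron and erythroid lists did not overlap between the FoxA2-Cre groups. Those of the astrocyte, lymphoid, oligodendrocyte and endothelial lists overlapped. The mean scaled signal of 10 neutrophil genes was -5.05 to -4.37 on the FoxA2-Cre hybrid arrays, with 2 to 3 genes well above background and Mpo, Ctsg, Ltf, S100a8, S100a9 and Ngp at background on both, against -1.55 to -0.78 on the FoxA2-Cre unfused arrays, with 6 to 8 genes. On the other slide it was -5.08 to -4.07 in R26Y hybrids, -4.17 to -3.41 in GFAP-Cre hybrids and -3.14 to -2.07 in pooled unfused cells. The mean of the 10 genes of microglia and macrophages was the other way round, at -1.71 to -1.15 in FoxA2-Cre hybrids and -3.40 to -2.63 in FoxA2-Cre unfused cells. It was -2.74 to -2.20 in GFAP-Cre hybrids, while R26Y hybrids (-3.33 to -3.10) overlapped pooled unfused cells (-3.56 to -3.22). Of 10 HSPC markers 2 to 5 were well above background in FoxA2-Cre hybrids and 4 to 5 in FoxA2-Cre unfused cells, with mean levels of -4.22 to -3.60 and -4.81 to -4.72, and Kit and Cd34 were measured on neither hybrid array. On the other slide 6 to 7 of these markers were well above background in R26Y hybrids, 8 to 9 in GFAP-Cre hybrids and 8 to 9 in pooled unfused cells. Of 8 astrocyte markers 1 to 3 were well above background in FoxA2-Cre hybrids and 2 to 3 in FoxA2-Cre unfused cells, with Gfap on none of the 4 arrays, against 5 to 7 in R26Y hybrids, 5 to 6 in GFAP-Cre hybrids and 6 to 7 in pooled unfused cells. Of 8 neuron markers 3 to 4 and 4 to 5 were so in FoxA2-Cre hybrids and unfused cells, and of 4 endothelial ones 1 and 1 to 3. The neuron means were -3.15 to -2.86 in FoxA2-Cre hybrids and -3.37 to -3.24 in FoxA2-Cre unfused cells. Erythroid means were -5.49 to -5.34 and -5.95 to -5.81, with 0 to 1 and 0 to 2 genes well above background. The part of these cell markers in the differences of Birc5, Rrm2, Cdc20, Tpx2 and Ccne1 was not tested.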

How the data were processed

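Sorted cells of 5 groups of 2 replicates were measured on 10 1-colour Agilent arrays. Per the file headers, the deposited processed signal, mean signal and background are intensities from Agilent Feature Extraction 10.7.3.1, with probe positions on mm9. The processed signal is background-subtracted within an array. A deposited matrix holds the authors' own log2 values and served as an alternative, whose tool is not given in the sources used here. The files also hold marks of 0 or 1 per spot, which the authors deposited as other columns, for spots well above background.

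Here, log2 of the processed signal was centred on the 75th percentile of each array's spots (those bright on every array), replicate spots were averaged, probes well above background on at least 2 arrays were kept, and each gene took its probe of highest mean. Of 55681 probes 27428 matched a RefSeq accession and 2788 were renamed. Tests used limma 3.58.1 in R 4.3.3 (linear models, moderated two-sided tests, Benjamini-Hochberg over 32212 genes) on the means of 5 groups, with 5 residual degrees of freedom, or on cell type with recipient set as a covariate, with 7. For a group at background on every array, each array's level was replaced by the higher of the probe's own reading and the lowest signal among probes well above background, which gives a fold of at least the value printed. A group counts as measured when at least 1 of its arrays was well above background. The number of arrays limits the precision. No columns of unmatched samples were found (0).

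Members and lists were chosen with earlier results of these data known. Named are the 2 tested members of highest mean level per role, any member past the threshold, up to 6 per slide whose hybrid and unfused arrays do not overlap, and the 2 genes of smallest p per pathway list. Cdc6, Pcna, Bub1b and others with a single outlying array were named after their values were seen. Replicate numbers do not pair the samples. The alternatives were other scalings, background correction, filters, probe choices, fits and leaving out each array.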

Additional observations from a re-analysis of the deposited data

How the results depend on the processing

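For members, 0 were called in all 23 alternatives for all hybrids, all 21 for GFAP-Cre hybrids and all 20 for the difference between recipient sets. Leaving out 1 array gave 0 to 4 called members for R26Y hybrids against pooled unfused cells (0 to 2316 genes), 0 to 4 for GFAP-Cre against R26Y hybrids (0 to 2183 genes) and 0 to 1 for FoxA2-Cre hybrids (61 to 559 genes), and 0 to 156 genes for the difference between recipient sets. The 171 genes called in FoxA2-Cre hybrids became 111 with normexp, 63 without probes that share a run with another gene, 104 with array weights and 0 on the FoxA2-Cre slide alone. With the replicate number as a block the count was 106, and the 31 genes of the difference between recipient sets became 0; deviations of same-numbered samples correlated between -0.07 and 0.07. Those 31 became 3 with quantile normalization, 55 with the authors' matrix and 5 without shared probes.

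The member median moved to 0.40 for all hybrids on the FoxA2-Cre slide alone, and with quantile normalization to 0.12 for R26Y and 0.019 for FoxA2-Cre hybrids. Leaving out 1 array gave 0.017 to 0.79 for FoxA2-Cre hybrids and -0.11 (without R26Y hybrid replicate 2) to 0.62 for GFAP-Cre against R26Y hybrids. For the difference between recipient sets it became 0.64 with normexp, 0.64 with no filter, 0.95 when probes of a gene were averaged, and 0.18 to 1.06 with 1 array left out. Among members with an unadjusted p under 0.05, Tpx2 in FoxA2-Cre hybrids turned from -2.47 to 0.10 with normexp, and the cause was not tested. On the FoxA2-Cre arrays signal close to background limits most members.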
